A study of Homo sapiens with 9 samples.

Results

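DNA replication and S phase genes were followed in HMC3 cells kept for 6 days in a cocktail of 3 compounds. The set holds 54 genes of the 61544 listed in the count file, named one by one for their part in copying the genome: the origin recognition complex, the factors that load the helicase, the MCM2-7 helicase and its activators, primase and the replicative polymerases, the sliding clamp and its loader, replication protein A, the enzymes that join Okazaki fragments, those that supply deoxynucleotides, the factors that restore chromatin and methylation behind the fork, and the G1/S regulators CCNE1, CCNE2 and E2F1 with the E2F target CDCA7. The rule that names them lists E2F targets beside these roles. It uses no measured value, but it was written with earlier results of these data known. All 54 had enough reads to be tested.

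HMC3 is a human microglial line immortalized with the SV40 T antigen, which disables the p53 and RB pathways, and RB is the protein that holds E2F factors in check. It is a single line, labelled wild type. VEH cells received only DMSO, the solvent of the 3 compounds. SLO cells received SBI-0206965 at 10 μM, O-151 at 1 μM and Lopinavir at 1 μM in DMSO, and SLO 1/2 cells received SBI-0206965 at 5 μM and each of the other agents at 0.5 μM. SBI-0206965 inhibits the autophagy kinase ULK1, O-151 inhibits the DNA glycosylase OGG1 and Lopinavir was used as a blocker of Lamin A biosynthesis. No library used here came from cells given 1 compound alone, so in these data the parts the compounds play cannot be told apart. Each group had 3 libraries of polyA RNA, 9 in all, and no source says whether the 3 came from separate cultures, so p-values measure the spread between these libraries. Because the RNA is bulk, fewer cells in S phase and less RNA per cell cannot be told apart.

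Between 14834295 and 19674841 reads per library fell on genes. The 54 genes were well covered: the fewest reads in any library were 59, for POLA2, or 181, for CCNE1, when POLA2 is set aside, and the most were 9925, for RRM1. Of 10 markers of microglia and macrophages, 1 (TREM2) reached 1 TPM (the deposited level, scaled for gene length and depth) in every VEH library, and P2RY12 was at 0 in all 9 libraries. Of 7 fibroblast and pericyte markers, 6 reached that level. Summed over the microglial markers, TPM lay between 1.46 and 2.52 in VEH libraries, between 4.11 and 6.31 with SLO 1/2 and between 4.80 and 5.08 with SLO. For the fibroblast and pericyte markers the lowest and highest sums were 3173 and 3314 in VEH, 3573 and 3634 with SLO 1/2 and 3541 and 3698 with SLO. Of 7 markers of astrocytes, oligodendrocytes and neurons 1 (SYT1) reached 1 TPM in every VEH library, AQP4 was at 0 in all 9 libraries, and the sums lay between 2.65 and 3.33 in VEH, 3.21 and 4.59 with SLO 1/2 and 4.63 and 4.88 with SLO. The defining microglial markers were thus absent or near 0, and the part of the marker shifts in the results below was not tested.

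In a dividing cell, origins are first bound by the origin recognition complex, and CDC6 and CDT1 then load MCM2-7 as an inactive helicase, a step called licensing that geminin (GMNN) blocks after S phase has begun. CDC45 and the GINS complex join MCM2-7 to make the active helicase, primase and DNA polymerase alpha lay down primers, and polymerases epsilon and delta extend them on the PCNA clamp. Many of these genes are transcribed from late G1 onwards by E2F factors, with cyclin E driving the entry into S phase.

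Most of the 54 genes fell, and a smaller group that holds G1/S regulators rose. In SLO against VEH, 34 genes were lower and 11 higher at an adjusted p below 0.05 in edgeR's quasi-likelihood test with Benjamini-Hochberg adjustment over all 14727 genes tested (such genes are named as called below), and 9 were not called. Of all genes tested 32.1% were lower and 32.9% higher, against 63.0% and 20.4% of the replication genes. Their median log2 fold change was -0.20, with quartiles of -0.50 and -0.01, beside 0.01 over all genes. In SLO 1/2 against VEH 32 genes were lower, 5 higher and 17 not called, beside a background of 25.3% lower and 26.7% higher, and the median was -0.19 beside 0.02. Without VEH replicate 3, 7 genes were higher in SLO, and without VEH replicate 2, VEH replicate 3 or SLO 1/2 replicate 2, 3 were higher in SLO 1/2. The changes were mostly small: 9 genes were more than 1.5-fold lower in SLO and 1 was more than 1.5-fold higher, and in SLO 1/2 there were 4 and 1.

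**Figure D1:**
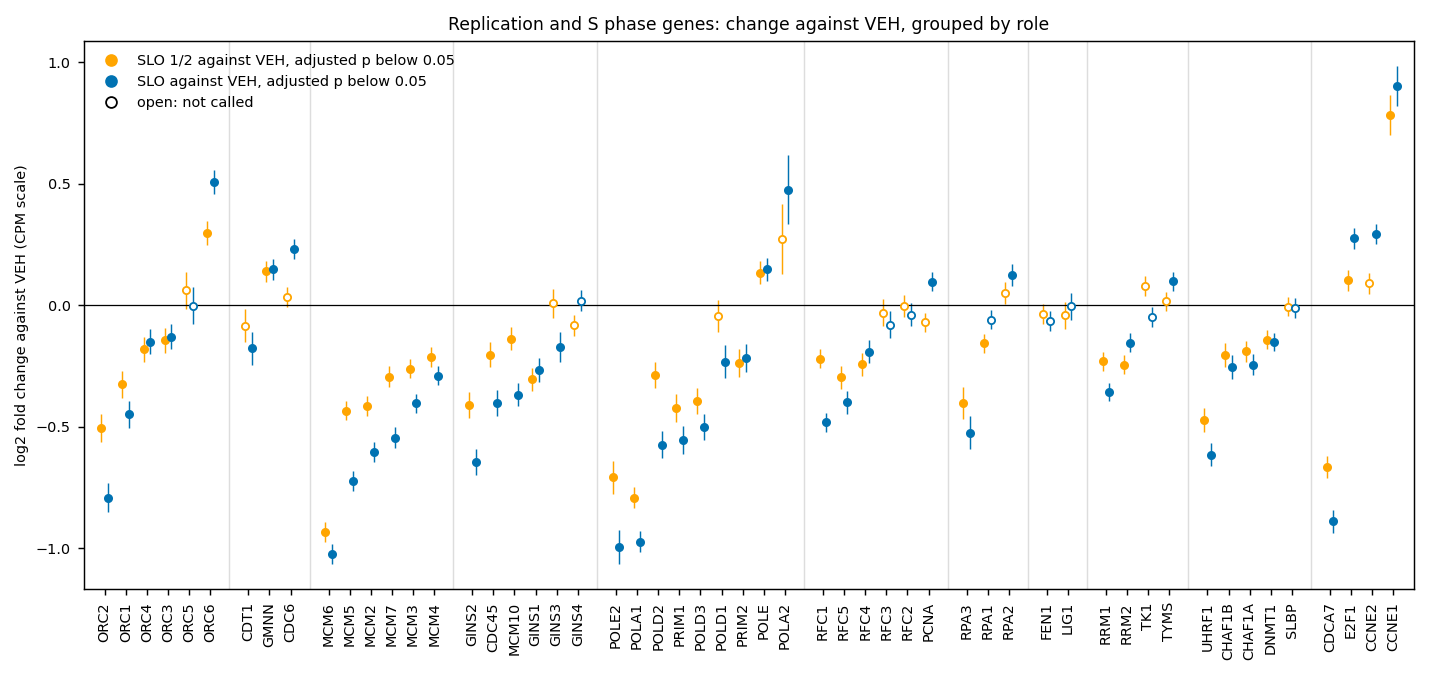
Log2 fold change against VEH, on the scale of CPM (a gene's reads per scaled library total), of each of the 54 genes in SLO 1/2 (orange) and SLO (blue), in blocks by role. Bars are standard errors, filled points passed the test at an adjusted p below 0.05 and open points did not; all 6 MCM2-7 genes sit below 0 at both doses, and CCNE1 lies highest at both.

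Taken as a share of the scaled library total (CPM summed over the 54 genes), the set took 0.776%, 0.761% and 0.764% in the VEH libraries, 0.668%, 0.671% and 0.678% in the SLO 1/2 libraries and 0.662%, 0.642% and 0.662% in the SLO libraries. On this scale every treated library was below every VEH library, and each SLO library was below each SLO 1/2 library. The scaling factors were 0.968 to 0.974 in VEH, 1.003 to 1.008 with SLO 1/2 and 1.015 to 1.035 with SLO. Before scaling the shares of the SLO and SLO 1/2 libraries overlapped, so their order rests on it. In single genes the ranges of SLO and VEH did not overlap for 35 genes on the lower side and 10 on the higher side, beside 33.0% and 33.7% of all genes tested. For SLO 1/2 and VEH these were 33 and 7 genes, beside 28.4% and 30.0%.

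Both treated groups were compared with the same VEH libraries, so the values at the 2 doses are given side by side. Lower at both doses were 31 genes, beside 21.3% of all genes tested, and higher at both were 5, beside 22.2%. None was called in opposite directions, which 0.937% of all genes were.

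Since many of these genes answer to E2F, the promoters of the set were read for its binding words. E2F targets were among the genes sought for the set, so a high share of such words was partly built into the choice. A promoter was taken from RefSeq (GRCh38.p14) as 250 bases before to 50 bases after a start site, and 47 of the 54 genes had at least 1 in the table, 60 promoters in all. One E2F word, TTTCCCGC, TTTGGCGC, TTTCGCGC or TTTGCCGC on either strand, stood in a promoter of 23 of the 47 genes (48.9%), beside 6.70% of the 10758 genes tested that had a promoter and 3.99% of all 27305 genes in the table. Shown here are the 160 bases before the start site of the 5 genes whose window holds an E2F word and overlaps the gene's own span in the files by at most 4 bases, together with CCNE1, the gene that rose most. Capitals mark the E2F words.
MCM6 (lower in SLO; chr2:135876444-135876603, minus strand): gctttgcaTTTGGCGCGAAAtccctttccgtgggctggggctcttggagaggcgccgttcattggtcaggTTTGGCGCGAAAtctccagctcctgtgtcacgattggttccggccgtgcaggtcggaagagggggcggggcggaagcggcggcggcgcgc
CDT1 (lower in SLO; chr16:88803629-88803788, plus strand): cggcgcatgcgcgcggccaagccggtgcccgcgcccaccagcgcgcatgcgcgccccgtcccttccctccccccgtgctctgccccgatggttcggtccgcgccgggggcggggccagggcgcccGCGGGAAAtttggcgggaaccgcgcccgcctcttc
E2F1 (higher in SLO; chr20:33686386-33686545, minus strand): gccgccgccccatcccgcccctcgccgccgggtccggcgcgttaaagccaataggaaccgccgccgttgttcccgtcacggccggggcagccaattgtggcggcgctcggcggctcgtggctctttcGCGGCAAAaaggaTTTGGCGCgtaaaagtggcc
PCNA (higher in SLO; chr20:5126623-5126782, minus strand): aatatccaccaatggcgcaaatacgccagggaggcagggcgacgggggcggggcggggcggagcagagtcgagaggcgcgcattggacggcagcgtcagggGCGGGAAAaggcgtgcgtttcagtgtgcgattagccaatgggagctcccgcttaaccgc
TYMS (higher in SLO; chr18:657493-657652, plus strand): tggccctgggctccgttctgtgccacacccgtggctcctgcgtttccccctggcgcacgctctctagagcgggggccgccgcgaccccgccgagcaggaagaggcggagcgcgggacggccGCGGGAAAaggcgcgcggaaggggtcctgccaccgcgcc
CCNE1 (higher in SLO; chr19:29811831-29811990, plus strand): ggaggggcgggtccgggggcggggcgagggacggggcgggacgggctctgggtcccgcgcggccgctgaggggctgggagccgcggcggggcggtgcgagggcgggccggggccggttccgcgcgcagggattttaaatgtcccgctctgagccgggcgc
In MCM6 the words TTTGGCGC and TTTCGCGC overlap on opposite strands in 2 places, which gives 4 matches. E2F1 holds 2 matches near its start, and CDT1, PCNA and TYMS hold 1 each. CCNE1 had none of the 4 words in its window. Genes with and without a word, and genes that rose and that fell, are thus both in this group, and a match of letters is a description and not a binding site.

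The origin recognition complex, which marks where replication may begin, split between its subunits. Of its 6 genes 4 fell and 1 rose in SLO, and the same counts were found in SLO 1/2. Of all genes tested 32.1% were lower and 32.9% higher in SLO, and 25.3% and 26.7% in SLO 1/2. ORC2, a core subunit, measured 71.6, 70.0 and 78.3 CPM in the VEH libraries, 52.4, 48.3 and 54.6 CPM in the SLO 1/2 libraries and 42.6, 39.0 and 46.0 CPM in the SLO libraries. Its libraries fell into 3 ranges without overlap, in the order of dose, and its log2 fold change was -0.51 ± 0.06 (SE, adjusted p = 2.45e-08) in SLO 1/2 and -0.79 ± 0.06 (SE, adjusted p = 2.19e-12) in SLO. ORC6, the smallest and least tightly bound subunit, went the other way, with 58.6, 61.5 and 55.7 CPM in the VEH libraries, 68.5, 74.0 and 73.4 CPM in the SLO 1/2 libraries and 83.3, 82.8 and 83.2 CPM in the SLO libraries. Again the 3 ranges did not overlap, and the log2 fold change was 0.30 ± 0.05 (SE, adjusted p = 8.73e-06) in SLO 1/2 and 0.51 ± 0.05 (SE, adjusted p = 3.2e-10) in SLO. Between the doses, the log2 fold change of SLO against SLO 1/2 was 0.21 ± 0.05 (SE, adjusted p = 0.000764) for ORC6 and -0.29 ± 0.06 (SE, adjusted p = 0.000474) for ORC2. ORC1, the subunit that leaves origins after G1, changed by -0.45 ± 0.06 (SE) on the log2 scale in SLO. ORC3 and ORC4 fell less, with -0.13 and -0.15, and ORC5 was not called at either dose (0.06 ± 0.07 (SE) and -0.00 ± 0.08 (SE)). In DESeq2 ORC3 was not called in SLO (adjusted p = 0.0657). The call of ORC3 in SLO 1/2 ended without SLO 1/2 replicate 1 (adjusted p = 0.0749), and that in SLO without VEH replicate 2 (adjusted p = 0.0606), without SLO replicate 2 (adjusted p = 0.141) and without SLO replicate 3 (adjusted p = 0.0708), and that of ORC4 without SLO replicate 3 (adjusted p = 0.073).

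Of the 3 licensing genes CDC6 and GMNN rose in SLO and CDT1 fell, each by a small amount. CDC6 measured 193, 199 and 210.1 CPM in the VEH libraries, 208, 199.6 and 209.6 CPM in the SLO 1/2 libraries and 245, 226 and 236 CPM in the SLO libraries. The SLO libraries stood above all others, and the log2 fold change was 0.23 ± 0.04 (SE, adjusted p = 2.32e-05) in SLO but 0.03 ± 0.04 (SE, adjusted p = 0.52) in SLO 1/2, which was not called. GMNN, the inhibitor of CDT1, measured 103, 97.0 and 103 CPM in the VEH libraries, 111, 113 and 109 CPM in the SLO 1/2 libraries and 118, 108 and 109.6 CPM in the SLO libraries. Both treated groups were above VEH, with log2 fold changes of 0.14 ± 0.04 (SE, adjusted p = 0.009) in SLO 1/2 and 0.15 ± 0.04 (SE, adjusted p = 0.00479) in SLO, and the call in SLO ended without SLO replicate 1 (adjusted p = 0.0567) and that in SLO 1/2 without VEH replicate 2 (adjusted p = 0.0599) and in the 3 limma fits on log2 TPM. CDT1, the factor that brings MCM2-7 to the origin, measured 43.0, 41.9 and 36.0 CPM in the VEH libraries, 39.6, 37.1 and 36.9 CPM in the SLO 1/2 libraries and 35.0, 38.3 and 33.0 CPM in the SLO libraries. The ranges of its SLO and VEH libraries overlapped, and its log2 fold change of -0.18 ± 0.07 (SE, adjusted p = 0.0231) in SLO did not hold without VEH replicate 1 (adjusted p = 0.109), without VEH replicate 2 (adjusted p = 0.0728), without SLO replicate 1 (adjusted p = 0.0547) and without SLO replicate 3 (adjusted p = 0.123). In SLO 1/2 the value for CDT1 was -0.08 ± 0.07 (SE, adjusted p = 0.302), which was not called, though it was lower without VEH replicate 3 (adjusted p = 0.0415).

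All 6 genes of the MCM2-7 helicase fell at both doses, the only role group in which every gene did so. Of all genes tested 21.3% were lower at both doses. The median log2 fold change of the 6 was -0.35 in SLO 1/2 and -0.57 in SLO, and in SLO against SLO 1/2 a further 4 of the 6 were lower, beside 20.3% of all genes tested. MCM6 (ENSG00000076003.5, chr2:135839626-135876443 in GRCh38) measured 233, 232 and 220.5 CPM in the VEH libraries, 119, 119 and 121 CPM in the SLO 1/2 libraries and 114, 106 and 116 CPM in the SLO libraries. Its treated libraries stood far below VEH and close together, with log2 fold changes of -0.93 ± 0.04 (SE, adjusted p = 5.04e-17) in SLO 1/2 and -1.02 ± 0.04 (SE, adjusted p = 2.21e-18) in SLO. The step from SLO 1/2 to SLO, -0.09 ± 0.04 (SE, adjusted p = 0.0961), was not called. MCM5 measured 144, 138 and 139.9 CPM in the VEH libraries, 104, 104 and 103 CPM in the SLO 1/2 libraries and 83.7, 84.9 and 86.8 CPM in the SLO libraries. Here the 3 groups did not overlap, and the log2 fold change was -0.43 ± 0.04 (SE) in SLO 1/2 and -0.72 ± 0.04 (SE, adjusted p = 3.54e-15) in SLO, with -0.29 ± 0.04 (SE, adjusted p = 2.16e-06) between the doses. The other 4 subunits changed by -0.41 and -0.60 (MCM2), -0.29 and -0.54 (MCM7), -0.26 and -0.40 (MCM3) and -0.21 and -0.29 (MCM4) in SLO 1/2 and SLO. Between the doses MCM2, MCM3, MCM5 and MCM7 fell again, and MCM4 and MCM6 were not called.

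**Figure D2:**
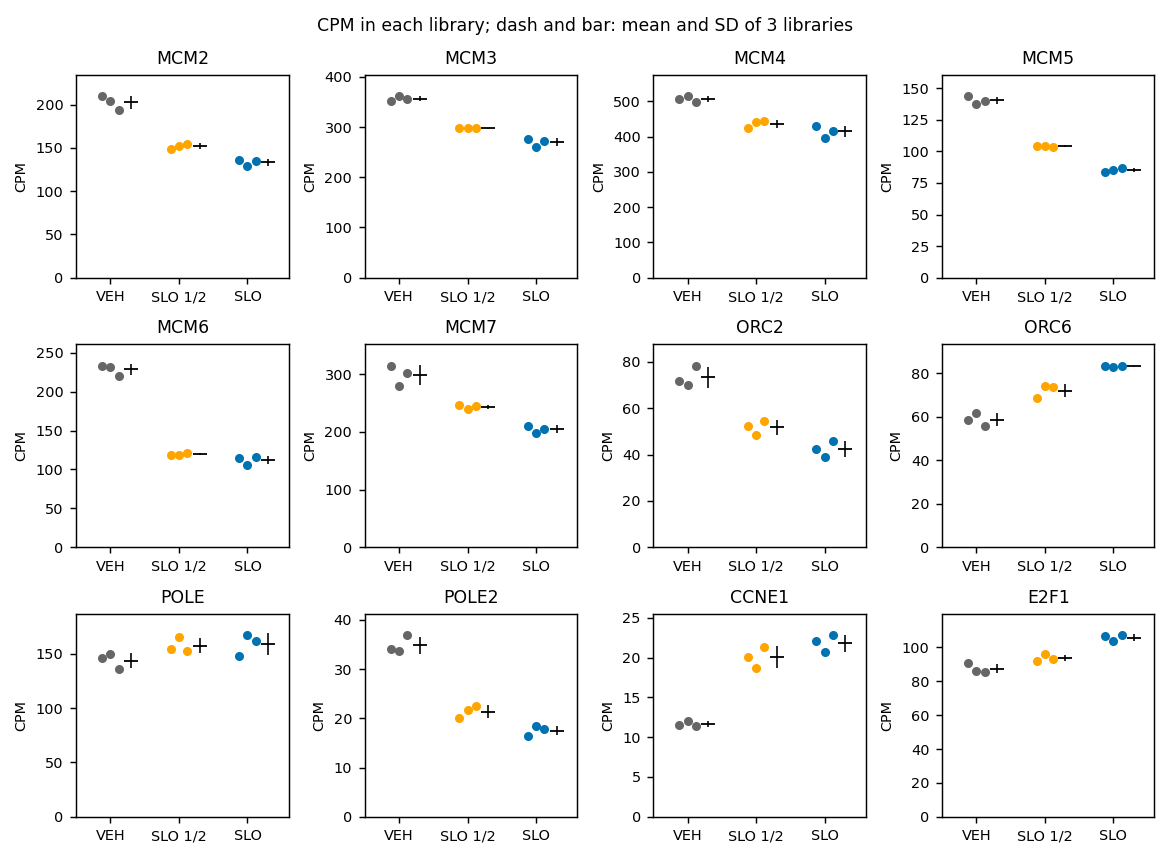
CPM in each library (points, 3 per group) with the mean and SD of the group (dash and bar), each panel starting at 0, for the MCM2-7 genes, for ORC2 and ORC6, for POLE and POLE2, and for CCNE1 and E2F1. The 6 MCM genes are lower in each treated library than in any VEH library, the pairs ORC2 and ORC6 and POLE2 and POLE go in opposite directions, and POLE overlaps VEH in SLO.

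Since the helicase holds each MCM subunit once, their levels were set side by side per length, as the deposited TPM, in which a gene's reads are divided by its length. In VEH the mean TPM ran from 90.9 ± 1.35 (SD, n = 3) for MCM5 to 460.3 ± 8.77 for MCM3, a ratio of 5.06. MCM5 was the lowest and MCM3 the highest of the 6 in all 3 groups, and the ratio was 5.71 in SLO 1/2 and 6.31 in SLO. Gene length was set by the authors, and RNA levels say nothing of how much protein each gives.

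Genes that turn the loaded helicase into an active one fell as well. Of the 6, 5 fell in SLO and 4 in SLO 1/2, and none rose. Beside them, 32.1% of all genes tested were lower in SLO and 25.3% in SLO 1/2. GINS2 measured 57.2, 55.2 and 59.8 CPM in the VEH libraries, 44.7, 41.2 and 44.0 CPM in the SLO 1/2 libraries and 37.4, 35.9 and 37.1 CPM in the SLO libraries. The 3 ranges were separate, and the log2 fold change was -0.41 ± 0.05 (SE) in SLO 1/2 and -0.64 ± 0.05 (SE, adjusted p = 2.17e-11) in SLO. CDC45 measured 62.4, 63.5 and 65.0 CPM in the VEH libraries, 55.0, 55.2 and 55.6 CPM in the SLO 1/2 libraries and 50.5, 44.5 and 49.7 CPM in the SLO libraries. It too fell in order of dose, with log2 fold changes of -0.20 ± 0.05 (SE) and -0.40 ± 0.05 (SE, adjusted p = 1.03e-07). MCM10, which helps the helicase to start unwinding, changed by -0.14 and -0.37, and its call in SLO 1/2 ended without VEH replicate 3 (adjusted p = 0.0734) and without SLO 1/2 replicate 3 (adjusted p = 0.0873). The 4 GINS genes, whose products form 1 complex, had different calls: GINS1 changed by -0.30 and -0.27, GINS3 was called only in SLO (-0.17) and GINS4 at neither dose (-0.08 ± 0.04 (SE) and 0.02 ± 0.04 (SE)). The call of GINS3 in SLO ended without VEH replicate 2 (adjusted p = 0.0507) and without SLO replicate 2 (adjusted p = 0.0618).

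Primase and the polymerases included the deepest falls after MCM6 and also 2 genes that rose. POLA1, the catalytic subunit of polymerase alpha (ENSG00000101868.13, chrX:24693873-24996986), measured 158, 163 and 151 CPM in the VEH libraries, 93.2, 90.6 and 88.5 CPM in the SLO 1/2 libraries and 83.3, 77.0 and 80.1 CPM in the SLO libraries. The lowest VEH library stood far above the highest treated one, and the log2 fold change was -0.79 ± 0.04 (SE, adjusted p = 5.76e-15) in SLO 1/2 and -0.97 ± 0.04 (SE, adjusted p = 2.45e-17) in SLO. POLE2, the second subunit of polymerase epsilon, measured 34.0, 33.6 and 36.9 CPM in the VEH libraries, 20.0, 21.7 and 22.5 CPM in the SLO 1/2 libraries and 16.4, 18.4 and 17.8 CPM in the SLO libraries. Its log2 fold change was -0.71 ± 0.07 (SE, adjusted p = 8.57e-10) and -0.99 ± 0.07 (SE, adjusted p = 5.8e-13), and the step between the doses was -0.29 ± 0.08 (SE, adjusted p = 0.00313). POLE, which encodes the catalytic subunit of the same polymerase, measured 146, 149.7 and 136 CPM in the VEH libraries, 155, 165 and 153 CPM in the SLO 1/2 libraries and 148, 167 and 162 CPM in the SLO libraries. SLO and VEH overlapped for POLE, and the log2 fold changes of 0.13 ± 0.05 (SE, adjusted p = 0.0188) in SLO 1/2 and 0.15 ± 0.05 (SE, adjusted p = 0.00773) in SLO were small. The call in SLO ended without VEH replicate 3 (adjusted p = 0.0757) and without SLO replicate 2 (adjusted p = 0.0618), and the call in SLO 1/2 without VEH replicate 3 (adjusted p = 0.139) and without SLO 1/2 replicate 2 (adjusted p = 0.131) and in DESeq2 (adjusted p = 0.051).

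POLA2, the partner subunit of POLA1, had few reads and measured 3.75, 4.66 and 4.13 CPM in the VEH libraries, 4.60, 5.55 and 4.97 CPM in the SLO 1/2 libraries and 5.93, 6.12 and 5.32 CPM in the SLO libraries. Its log2 fold change was 0.48 ± 0.14 (SE, adjusted p = 0.00411) in SLO, where all 3 libraries were above VEH, and 0.27 ± 0.14 (SE, adjusted p = 0.112) in SLO 1/2, which was not called. Per length its VEH level was 3.53 ± 0.406 TPM against 47.6 ± 1.81 TPM for POLA1. In GENCODE v44 55.8% of the bases of POLA2's canonical transcript also belong to exons of another gene on the same strand, ENSG00000285816, which had at most 14 reads in a library. Reads in such shared bases are counted for neither gene. On the same strand PRIM1 shared 25.4% of its canonical bases with ENSG00000285625 and 3.44% with NACA, and POLD1 shared 12.4% with ENSG00000142539. The part of this in the levels of POLA2, PRIM1 and POLD1 was not tested. Among the rest of the group, the primase genes PRIM1 and PRIM2 changed by -0.55 and -0.22 in SLO, and both were lower at both doses. For polymerase delta, POLD2 and POLD3 changed by -0.57 and -0.50, and were lower at both doses too. The catalytic subunit POLD1 was called only in SLO (-0.23 ± 0.07 (SE, adjusted p = 0.00392)), with -0.04 ± 0.07 (SE, adjusted p = 0.608) in SLO 1/2.

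The clamp gene PCNA was called slightly higher in SLO, where the loader genes were lower or not called. PCNA, the ring that holds polymerases on DNA, measured 307, 302 and 297 CPM in the VEH libraries, 292, 279 and 291 CPM in the SLO 1/2 libraries and 328, 318 and 323 CPM in the SLO libraries. SLO libraries were highest and SLO 1/2 libraries lowest, and the log2 fold change was 0.10 ± 0.04 (SE, adjusted p = 0.0279) in SLO and -0.07 ± 0.04 (SE, adjusted p = 0.129), not called, in SLO 1/2. The call in SLO ended without VEH replicate 2 (adjusted p = 0.0663), without VEH replicate 3 (adjusted p = 0.093), without SLO replicate 1 (adjusted p = 0.0971) and without SLO replicate 3 (adjusted p = 0.0707). It also ended without an expression filter (adjusted p = 0.194) and in the 3 limma fits on log2 TPM (adjusted p = 0.0684, 0.0657 and 0.124). In SLO 1/2 PCNA was called lower by limma on log2(TPM + 1) (adjusted p = 0.0346) and on log2(TPM + 0.1) (adjusted p = 0.0329). Between the doses PCNA was higher in SLO by 0.17 ± 0.04 (SE, adjusted p = 0.000781) on the log2 scale, beside 20.8% of all genes tested that were higher in that comparison. RFC1, the large subunit of the clamp loader, measured 297, 286 and 287 CPM in the VEH libraries, 247, 248 and 252 CPM in the SLO 1/2 libraries and 207, 199 and 217 CPM in the SLO libraries. Its log2 fold change was -0.22 ± 0.04 (SE) in SLO 1/2 and -0.48 ± 0.04 (SE, adjusted p = 1.3e-11) in SLO, with no overlap between groups. RFC5 measured 97.7, 87.7 and 93.0 CPM in the VEH libraries, 74.2, 75.8 and 76.8 CPM in the SLO 1/2 libraries and 67.0, 72.6 and 71.5 CPM in the SLO libraries, and its log2 fold change was -0.30 ± 0.05 (SE) and -0.40 ± 0.05 (SE, adjusted p = 2.63e-08). RFC4 was lower at both doses (-0.24 and -0.19), while RFC2 (-0.04 ± 0.05 (SE) in SLO) and RFC3 (-0.08 ± 0.05 (SE)) were called at neither. The loader is a ring of these 5 proteins, and 3 of the 5 genes fell at both doses, beside 21.3% of all genes tested.

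Replication protein A coats single-stranded DNA as a complex of 3 subunits. RPA3, the smallest, measured 27.6, 28.9 and 28.4 CPM in the VEH libraries, 20.7, 21.4 and 22.0 CPM in the SLO 1/2 libraries and 20.5, 19.6 and 18.9 CPM in the SLO libraries. It was lower in all treated libraries, with log2 fold changes of -0.40 ± 0.07 (SE, adjusted p = 8.2e-06) in SLO 1/2 and -0.52 ± 0.07 (SE, adjusted p = 8.82e-08) in SLO. RPA2 measured 70.1, 66.8 and 67.7 CPM in the VEH libraries, 70.5, 69.8 and 71.5 CPM in the SLO 1/2 libraries and 72.8, 73.3 and 77.2 CPM in the SLO libraries, and its rise in SLO, 0.13 ± 0.05 (SE, adjusted p = 0.0189), ended without VEH replicate 2 (adjusted p = 0.0752), without VEH replicate 3 (adjusted p = 0.0544) and without SLO replicate 3 (adjusted p = 0.111) as well as in DESeq2 (adjusted p = 0.0553). RPA1, the largest subunit, was lower in SLO 1/2 (-0.16 ± 0.04 (SE, adjusted p = 0.000979)) and not called in SLO (-0.06 ± 0.04 (SE, adjusted p = 0.175)). Its rise from SLO 1/2 to SLO, 0.10 ± 0.04 (SE, adjusted p = 0.0409), ended without SLO 1/2 replicate 1 (adjusted p = 0.123), without SLO 1/2 replicate 2 (adjusted p = 0.112), without SLO 1/2 replicate 3 (adjusted p = 0.0749), without SLO replicate 1 (adjusted p = 0.134) and without SLO replicate 3 (adjusted p = 0.0955). FEN1 and LIG1, which trim and seal Okazaki fragments, were called at neither dose. FEN1 measured 162, 166 and 175 CPM in the VEH libraries, 159.7, 169 and 163 CPM in the SLO 1/2 libraries and 162, 156 and 163 CPM in the SLO libraries, and LIG1 measured 54.7, 54.1 and 49.0 CPM in the VEH libraries, 50.9, 53.2 and 48.8 CPM in the SLO 1/2 libraries and 49.5, 53.0 and 54.5 CPM in the SLO libraries. All 3 groups overlapped in both genes, with log2 fold changes in SLO of -0.06 ± 0.04 (SE) and -0.00 ± 0.06 (SE).

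Among the genes of deoxynucleotide supply, RRM1 and RRM2 of ribonucleotide reductase fell, RRM2 in SLO by a call that rests on the scaling. RRM2B, a further subunit gene of that enzyme outside the set, is given here after its values were seen. It rose by 0.13 ± 0.05 (SE, adjusted p = 0.0285) in SLO 1/2 and 0.52 ± 0.05 (SE, adjusted p = 3.08e-10) in SLO. RRM1, the large subunit, measured 525, 508 and 518 CPM in the VEH libraries, 435, 440.4 and 447 CPM in the SLO 1/2 libraries and 406, 393 and 412 CPM in the SLO libraries. The 3 groups did not overlap, and the log2 fold change was -0.23 ± 0.04 (SE) in SLO 1/2 and -0.36 ± 0.04 (SE, adjusted p = 2.33e-09) in SLO. RRM2, the subunit made in S phase, measured 520.3, 507 and 515 CPM in the VEH libraries, 435, 425 and 443 CPM in the SLO 1/2 libraries and 455, 452 and 479.9 CPM in the SLO libraries. It was lowest in SLO 1/2, with -0.24 ± 0.04 (SE, adjusted p = 5.23e-06) there and -0.15 ± 0.04 (SE, adjusted p = 0.000979) in SLO. The call of RRM2 in SLO ended with library size only in place of TMM scaling, at -0.080 (adjusted p = 0.0584). TYMS, which makes thymidylate, measured 168, 160.0 and 164 CPM in the VEH libraries, 164, 165 and 168 CPM in the SLO 1/2 libraries and 179.5, 174 and 173 CPM in the SLO libraries. SLO stood above VEH by 0.10 ± 0.04 (SE, adjusted p = 0.028), a call that ended without VEH replicate 2 (adjusted p = 0.128), without VEH replicate 3 (adjusted p = 0.0583) and without SLO replicate 1 (adjusted p = 0.118). That call also ended in DESeq2 (adjusted p = 0.05145). The thymidine kinase TK1 was called against VEH at neither dose (0.08 ± 0.04 (SE) and -0.05 ± 0.04 (SE)) but was lower in SLO than in SLO 1/2 (log2 fold change -0.13 ± 0.04 (SE, adjusted p = 0.0104)). That step was not called in the 3 limma fits on log2 TPM (adjusted p = 0.0823, 0.0817 and 0.156), and TK1 was called higher in SLO 1/2 than in VEH without VEH replicate 1 (adjusted p = 0.0345), with library size only (adjusted p = 0.00584) and with a floor of 10 counts in every library (adjusted p = 0.0323).

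Factors that rebuild chromatin and copy DNA methylation behind the fork fell in 4 of 5 cases at both doses, beside 21.3% of all genes tested. UHRF1, which brings the methyltransferase DNMT1 to newly copied DNA, measured 92.8, 103 and 101 CPM in the VEH libraries, 70.6, 70.8 and 72.7 CPM in the SLO 1/2 libraries and 66.0, 61.2 and 67.1 CPM in the SLO libraries. Treated libraries did not overlap VEH, and the log2 fold change was -0.47 ± 0.05 (SE, adjusted p = 2.5e-09) in SLO 1/2 and -0.61 ± 0.05 (SE, adjusted p = 5.92e-12) in SLO. CHAF1A, the large subunit of the histone chaperone CAF-1, measured 117, 116 and 111 CPM in the VEH libraries, 97.7, 103 and 101 CPM in the SLO 1/2 libraries and 93.4, 99.2 and 98.1 CPM in the SLO libraries, with -0.19 ± 0.04 (SE) and -0.25 ± 0.04 (SE, adjusted p = 1.44e-05). CHAF1B, its partner, changed by -0.21 and -0.25, and DNMT1 by -0.14 and -0.15. SLBP, which binds the stem loop of histone messages, was called at neither dose (-0.01 ± 0.04 (SE) and -0.01 ± 0.04 (SE)).

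Within the set, the G1/S regulators CCNE1, CCNE2 and E2F1 went against the bulk of it in SLO. Among related regulators outside the set, given further below, calls went both ways. CCNE1, cyclin E1 (ENSG00000105173.14, chr19:29811991-29824312), measured 11.5, 12.1 and 11.4 CPM in the VEH libraries, 20.1, 18.7 and 21.4 CPM in the SLO 1/2 libraries and 22.0, 20.7 and 22.8 CPM in the SLO libraries. All treated libraries were well above VEH, and the log2 fold change was 0.78 ± 0.08 (SE, adjusted p = 4.34e-09) in SLO 1/2 and 0.90 ± 0.08 (SE, adjusted p = 9.12e-11) in SLO, with 0.12 ± 0.07 (SE, adjusted p = 0.208), not called, between the doses. CCNE2, cyclin E2, measured 94.0, 97.5 and 94.8 CPM in the VEH libraries, 99.0, 102 and 104 CPM in the SLO 1/2 libraries and 116, 114 and 121 CPM in the SLO libraries. It rose in SLO by 0.29 ± 0.04 (SE, adjusted p = 6.07e-07) and was not called in SLO 1/2 (0.09 ± 0.04 (SE, adjusted p = 0.0769)), though it was with library size only (adjusted p = 0.00558). E2F1, the activating E2F factor (ENSG00000101412.13, chr20:33675477-33686385), measured 90.6, 85.9 and 85.8 CPM in the VEH libraries, 92.2, 96.0 and 93.1 CPM in the SLO 1/2 libraries and 107, 104 and 107 CPM in the SLO libraries. The 3 ranges followed the dose without overlap: the log2 fold change was 0.28 ± 0.04 (SE, adjusted p = 2.13e-06) in SLO, and in SLO 1/2 it was 0.10 ± 0.04 (SE, adjusted p = 0.0489), near the threshold. The call in SLO 1/2 was lost in 12 of 16 alternatives, among them DESeq2 (adjusted p = 0.139), the replicate block (adjusted p = 0.0524) and the fits without VEH replicate 2 (adjusted p = 0.142), without VEH replicate 3 (adjusted p = 0.15), without SLO 1/2 replicate 1 (adjusted p = 0.0664), without SLO 1/2 replicate 2 (adjusted p = 0.172) and without SLO 1/2 replicate 3 (adjusted p = 0.0952). CDCA7, a direct target of E2F and MYC that takes part in keeping DNA methylated, measured 130.5, 127 and 125 CPM in the VEH libraries, 75.3, 81.9 and 83.7 CPM in the SLO 1/2 libraries and 69.9, 69.0 and 67.4 CPM in the SLO libraries. It fell at both doses, with log2 fold changes of -0.67 ± 0.04 (SE, adjusted p = 4.71e-13) and -0.89 ± 0.05 (SE, adjusted p = 3.42e-16). Within this group of 4, CDCA7 thus moved against E2F1, while CCNE1 and CCNE2 rose in SLO with E2F1.

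**Figure D3:**
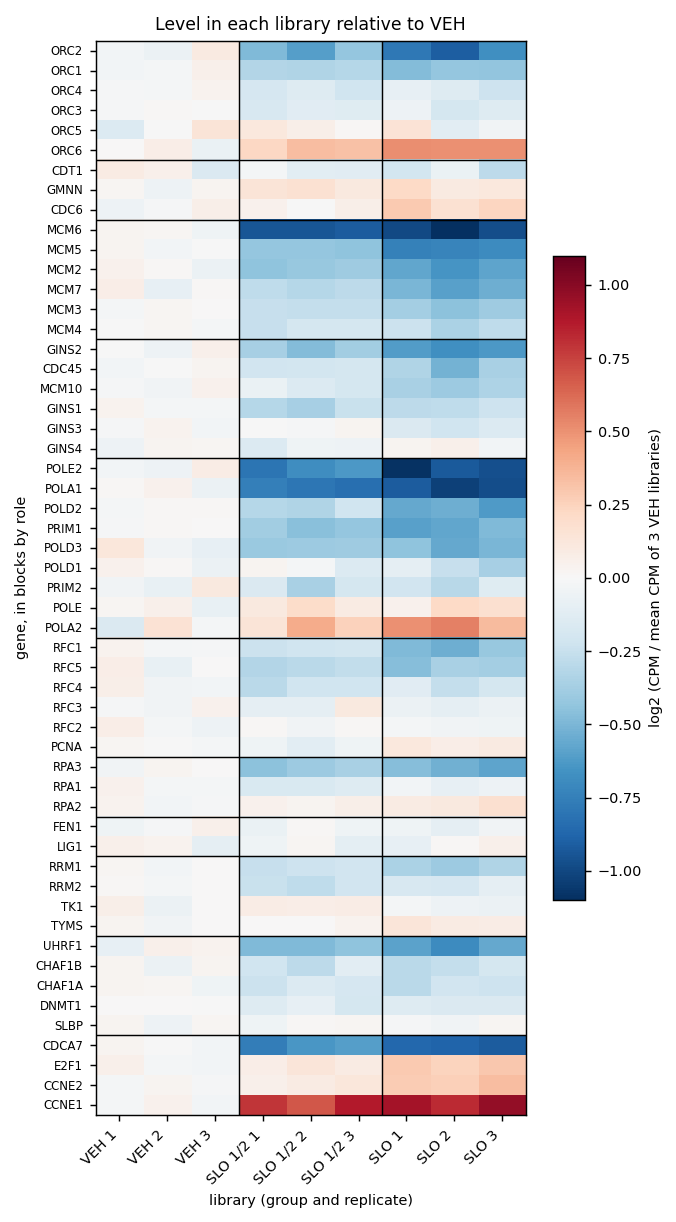
Level of each of the 54 genes (rows, in blocks by role) in each of the 9 libraries (columns), as log2 of the CPM over the mean CPM of the 3 VEH libraries; blue is lower and red higher. Libraries of 1 group look alike, the blocks of MCM2-7 and of most polymerase genes are blue in all 6 treated libraries, and ORC6 and CCNE1 are red in all 6.

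Comparing the doses directly, SLO was lower than SLO 1/2 for 18 of the 54 genes, higher for 6 and not called for 30. Over all genes tested 20.3% were lower and 20.8% higher, and the median log2 difference was -0.06 in the set beside -0.001 over all genes. That median was -0.035 with library size only and -0.026 to -0.027 in the 3 limma fits on log2 TPM, of which the one without a filter called 10 genes lower. Ranges did not overlap for 23 genes on the lower side and 10 on the higher, beside 25.6% and 25.4%. Of the 31 genes lower at both doses, 15 fell again from SLO 1/2 to SLO: ORC2, MCM2, MCM3, MCM5, MCM7, MCM10, CDC45, GINS2, POLA1, POLE2, POLD2, RFC1, RRM1, UHRF1 and CDCA7. The step of UHRF1 ended without SLO 1/2 replicate 3 (adjusted p = 0.0872) and without SLO replicate 2 (adjusted p = 0.151). That step also ended in DESeq2 (adjusted p = 0.0697), with library size only (adjusted p = 0.056) and in the 3 limma fits. The pattern was held by 27.8% of the set and 9.13% of all genes tested. For the other 16 the step was not called: ORC1, ORC3, ORC4, MCM4, MCM6, GINS1, PRIM1, PRIM2, POLD3, RFC4, RFC5, RPA3, RRM2, DNMT1, CHAF1A and CHAF1B. They made up 29.6% of the set and 11.2% of all genes. Of the 18 lower genes the remaining 3 were TK1, GINS3 and POLD1, and the call of GINS3 ended without SLO 1/2 replicate 3 (adjusted p = 0.0675) and without SLO replicate 2 (adjusted p = 0.0743) and that of POLD1 without SLO 1/2 replicate 1 (adjusted p = 0.133), without SLO 1/2 replicate 2 (adjusted p = 0.0786), without SLO replicate 2 (adjusted p = 0.0742) and without SLO replicate 3 (adjusted p = 0.177). In DESeq2 the step was called for neither GINS3 (adjusted p = 0.0781) nor POLD1 (adjusted p = 0.072). The step kept its call in all 16 alternatives for 9 of the 18, and ORC2, MCM3, CDC45, GINS3, POLA1, POLD1, RRM1, TK1 and UHRF1 lost it in at least 1. RRM2, not called here, was called higher in SLO than in SLO 1/2 in 7 alternatives, among them DESeq2 (adjusted p = 0.042), the replicate block (adjusted p = 0.0497), library size only (adjusted p = 0.0139) and the fit without SLO replicate 2 (adjusted p = 0.0414). A step that was not called does not show that the doses acted alike.

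Of the genes that rose in SLO, 5 were also called higher in SLO 1/2 (ORC6, E2F1, GMNN, POLE and CCNE1), of which ORC6 and CCNE1 kept that call in all 16 alternatives and E2F1, GMNN and POLE lost it in 12, 4 and 6. ORC6 and E2F1 rose again between the doses. CDC6, PCNA and CCNE2 were higher in SLO than in both VEH and SLO 1/2 and were not called in SLO 1/2 against VEH. POLA2, RPA2 and TYMS were called only in SLO against VEH. The 7 genes called in no comparison were ORC5, GINS4, RFC2, RFC3, FEN1, LIG1 and SLBP, or 13.0% of the set beside 25.1% of all genes tested.

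Levels of the set spanned a wide range per length. In VEH PCNA stood highest with 1012 ± 10.4 TPM (SD, n = 3), followed by TK1 with 804 ± 31.2, RRM1 with 575 ± 7.09 and MCM3 with 460.3 ± 8.77. TK1 and PCNA differed by more than their spread, as did RRM1 and MCM3. The lowest were POLA2 and CCNE1, with 3.53 ± 0.406 and 22.3 ± 0.749. The 6 subunits of the origin recognition complex lay between 33.4 ± 0.856 (ORC4) and 64.0 ± 3.21 (ORC6), beside the 5.06-fold range of MCM2-7. E2F1 stood at 153 ± 3.85 and CCNE2 at 102 ± 2.44.

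**Figure D4:**
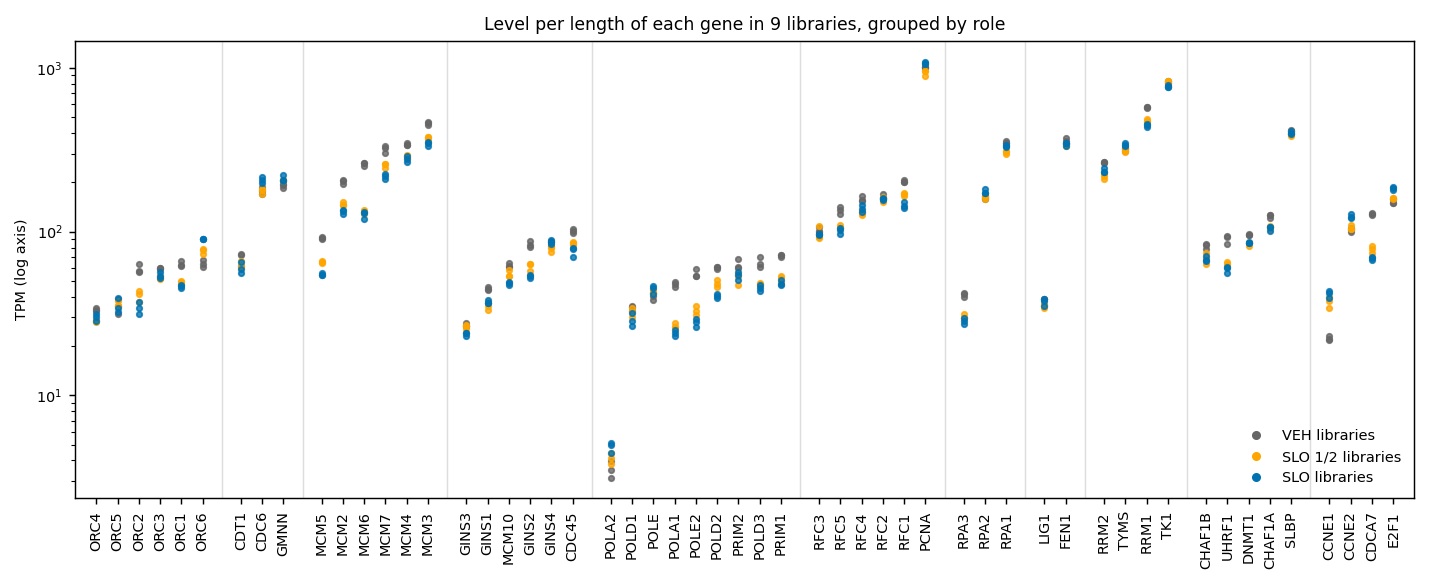
TPM, on a log axis, of each of the 54 genes in each library (grey VEH, orange SLO 1/2, blue SLO), in blocks by role and ordered by the VEH mean within a block. PCNA is the highest and POLA2 the lowest in every group.

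Outside the 54 genes, other lists of the pathway held calls in both directions, to be read beside the 32.1% lower and 32.9% higher of all genes tested in SLO and the 25.3% and 26.7% in SLO 1/2. Of 16 genes of fork protection, checkpoint and origin firing 10 were lower (62.5%) and 2 higher (12.5%) in SLO, and 8 and 2 of the 16 in SLO 1/2, with medians of -0.21 and -0.11. MTBP, which helps to fire origins, changed by -0.77 ± 0.06 (SE, adjusted p = 1.42e-12) in SLO, and WDHD1, which ties polymerase alpha to the helicase, by -0.51 ± 0.04 (SE, adjusted p = 3.87e-12). CLSPN, the checkpoint mediator claspin, and LRWD1, which binds the origin recognition complex, rose by 0.33 ± 0.05 (SE, adjusted p = 4.2e-06) and 0.31 ± 0.07 (SE, adjusted p = 0.000617). Of 15 accessory subunits, alternative clamp loaders, topoisomerases and RNA primer enzymes 8 were lower (53.3%) and 3 higher (20.0%) in SLO, and 7 (46.7%) and 4 (26.7%) in SLO 1/2. ATAD5, which unloads PCNA, changed by -0.53 ± 0.05 (SE, adjusted p = 2.12e-10), and TOP2A, which untangles replicated DNA, by -0.30 ± 0.04 (SE, adjusted p = 1.45e-07). Of 9 other histone chaperones and remodellers 6 were lower (66.7%) and 1 higher (11.1%) in SLO, and 5 (55.6%) and 1 (11.1%) in SLO 1/2. SSRP1, a subunit of the chaperone FACT, went from a mean of 551 CPM in VEH to 376 in SLO 1/2 and 284 in SLO (-0.95 ± 0.04 (SE, adjusted p = 7.47e-19)), CDCA7L changed by -0.69 ± 0.05 (SE, adjusted p = 1.37e-12), and ASF1B, a chaperone of newly made histones, rose by 0.55 ± 0.05 (SE, adjusted p = 3.01e-11).

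Of 10 other enzymes of the nucleotide pool 3 were lower and 5 higher in SLO, and 4 lower and 5 higher in SLO 1/2, beside the 32.1% and 32.9% of all genes tested in SLO and the 25.3% and 26.7% in SLO 1/2. DUT, which breaks down dUTP, went from 112 to 80.9 and 58.6 CPM (-0.93 ± 0.05 (SE, adjusted p = 1.62e-15) in SLO). SAMHD1, which breaks down deoxynucleotides, went from 134 to 255 and 211 CPM (0.65 ± 0.05 (SE, adjusted p = 8.84e-12)).

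Of 29 genes of the E2F, DP, RB and DREAM proteins and the G1/S kinases 28 were tested, and 13 were lower (46.4%) and 7 higher (25.0%) in SLO, and 12 (42.9%) and 6 (21.4%) in SLO 1/2, beside the 32.1% and 32.9% of all genes tested in SLO and the 25.3% and 26.7% in SLO 1/2. The median was -0.02 in SLO and -0.04 in SLO 1/2, beside 0.01 and 0.02 over all genes. CDKN1A, which encodes p21, an inhibitor of cyclin-dependent kinases that also binds PCNA, measured 112, 91.2 and 80.9 CPM in the VEH libraries, 252, 248 and 241 CPM in the SLO 1/2 libraries and 428, 428 and 414 CPM in the SLO libraries. Its 3 ranges rose with dose far apart from each other, and the log2 fold change was 1.39 ± 0.06 (SE, adjusted p = 1.15e-16) in SLO 1/2 and 2.17 ± 0.06 (SE, adjusted p = 8.79e-22) in SLO. MYBL2, the B-MYB factor of late G1 and S phase, rose by 0.42 ± 0.04 (SE) and 0.66 ± 0.04 (SE, adjusted p = 2.28e-14). E2F7, which represses E2F targets, rose in SLO (0.28 ± 0.04 (SE, adjusted p = 2.15e-06)) and was not called in SLO 1/2, and RB1 and the inhibitor gene CDKN1B were lower in SLO 1/2 (-0.15 and -0.19) and higher in SLO (0.11 and 0.15). CDK6 and CCND3 were the remaining genes higher in SLO, by 0.51 and 0.22. Of the 13 lower genes, 4 are given here after their values were seen. E2F8, a repressor of the same kind as E2F7, changed by -0.64 ± 0.08 (SE, adjusted p = 7.84e-08) in SLO 1/2 and -1.19 ± 0.09 (SE, adjusted p = 5.89e-13) in SLO, and the activator E2F2 by -0.68 ± 0.12 (SE) and -0.87 ± 0.13 (SE, adjusted p = 7.29e-07). CDK4, a kinase of G1, changed by -0.40 ± 0.04 (SE, adjusted p = 7.56e-10) in SLO and CCNA2, cyclin A2, by -0.39 ± 0.04 (SE, adjusted p = 1.11e-09).

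For comparison, 25 genes of G2 and mitosis were lower in 23 cases (92.0%, beside 32.1% of all genes tested) and higher in none in SLO, with a median of -0.46, and lower in 14 (56.0%, beside 25.3%) and higher in none in SLO 1/2, with a median of -0.17. Between the doses 19 of the 25 were lower in SLO (76.0%, beside 20.3%). CCNB1, cyclin B1, went from 519.8 to 422 and 302 CPM (-0.78 ± 0.04 (SE, adjusted p = 3.82e-16) in SLO), and MKI67, the proliferation marker Ki-67, from 1472 to 962 and 792 (-0.89 ± 0.05 (SE, adjusted p = 6.38e-15)). No gene of this list was called higher, beside 11 of the 54 replication genes, and the difference between the lists was not tested. The median of the replication genes was -0.19 at the lower dose and -0.20 at the full one, and that of the mitotic genes was -0.17 and -0.46.

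The promoter words were then counted in these lists. E2F words were held by 14 of 30 replication genes that were lower in SLO (46.7%), 7 of 9 that were higher (77.8%) and 2 of 8 that were not called (25.0%), and by 3 of 19 mitotic genes (15.8%). All 4 MCM2-7 genes with a promoter in the table held one. Of the 7 higher genes with an E2F word, GMNN, POLE, PCNA and TYMS lost their higher call in at least 1 alternative. ORC6 and CCNE1, which held no E2F word, kept theirs in every alternative. The CHR word TTTGAA, by which the DREAM and MuvB complexes bind genes of G2 and mitosis, was found in 1 of 47 replication genes (RRM1, 2.13%) and in 14 of 19 mitotic genes (73.7%), beside 13.5% of genes tested. The word CCAAT of the factor NF-Y was found in 57.4% and 84.2%, beside 43.5%. In the replication promoters there were 31 E2F matches, of which 21 lay wholly in the 160 bases before the start and 4 after it. The words were searched on both strands, none of the 3 kinds of word contains another, and no word's absence says that a factor does not bind.

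**Figure D5:**
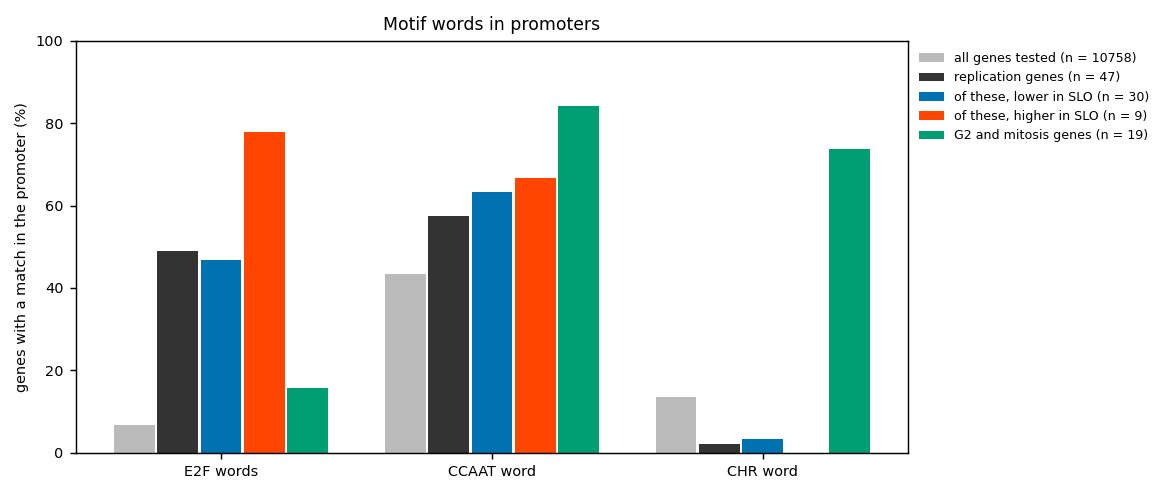
Share of genes (bars, %) with a match to an E2F, CCAAT or CHR word in a RefSeq promoter, for all genes tested, the replication genes, those of them lower and higher in SLO, and the G2 and mitosis genes; n is the number with a promoter in the table. E2F words are most frequent in the replication genes that rose (77.8% of 9) and CHR words in the mitotic genes (73.7%). Several of the genes that rose lost that call in some alternatives.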

How the data were processed

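HMC3 cells were treated for 6 days and polyA RNA was sequenced from 9 libraries, 3 per group, grouped by the labels. Per the labels and the study's methods the authors used Trimmomatic 0.38 for trimming and STAR 2.7.1a for alignment to GRCh38, and deposited stranded read counts per gene. The authors also deposited TPM per gene, used here for levels between genes and in the 3 limma fits among the alternatives. The annotation release and the gene length behind TPM are not given in the sources used here. The 4 summary lines of the count file (0.883% to 0.984% unmapped, 7.16% to 8.52% multimapping, 5.54% to 8.38% on no feature and 3.03% to 3.26% ambiguous reads) were left out of library sizes.

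From the counts, 14727 of the 32299 genes with at least 1 count passed filterByExpr (minimum count 10, minimum total 15). edgeR 4.0.16 in R 4.3.3 was fitted to all 9 libraries with TMM scaling (factors 0.968 to 1.035, common biological coefficient of variation 3.76%), glmQLFit and glmQLFTest, and p-values were adjusted by Benjamini-Hochberg over all genes tested, with calls at an adjusted p below 0.05. Standard errors were taken from the fold change and its F statistic. CPM are counts relative to the TMM-scaled library total. The script was tested on simulated data. Promoters came from RefSeq (GRCh38.p14) and gene overlaps from GENCODE v44, in which 50 of the 54 genes had the same start and end as in the deposited files.

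Alternatives were DESeq2 1.42.0, DESeq2 size factors or library size only in edgeR, no filter, a floor of 10 counts for each library, a fit of the 2 groups compared alone and a replicate block. Further ones were limma 3.58.1 on log2(TPM + 1), with and without the filter, limma on log2(TPM + 0.1), and fits with each library left out. Replicates of a group differed by more than counting noise (chi-square per degree of freedom 1.77 to 4.01), so none was a duplicate. The 54 genes and the other lists were chosen with earlier results of these data known. Each library's value was given for the 2 genes of each role that had the lowest p for SLO and VEH, for every gene called higher at either dose, and for E2F1, PCNA, CDT1 and GMNN, and of each other list the 2 genes with the lowest p, and some called against the list's main direction, were named.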

Additional observations from a re-analysis of the deposited data

How the results depend on the processing

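Over the alternatives run, no result changed direction while being called. In SLO against VEH, 27 of 34 lower calls, 6 of 11 higher calls and all 9 genes without a call stayed so in all 16 alternatives; those that did not were ORC3, ORC4, CDT1, GINS3, PRIM2, RRM2 and DNMT1 among the lower and GMNN, POLE, PCNA, RPA2 and TYMS among the higher. In SLO 1/2 against VEH these were 30 of 32, 2 of 5 (CCNE1 and ORC6) and 12 of 17, and in SLO against SLO 1/2 9 of 18, 5 of 6 and 26 of 30. Calls were gained in at least 1 alternative by CDT1, GINS4, PCNA, TK1 and CCNE2 in SLO 1/2 and by GINS4, RPA2, TYMS and RRM2 between the doses. With 3 libraries per group, small changes are the ones that these data can least decide.

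With library size only in place of TMM, the median log2 fold change of the set was -0.13 in SLO and -0.13 in SLO 1/2 against VEH and -0.035 in SLO against SLO 1/2, where the median over all genes was 0.09, 0.07 and 0.02. In SLO 1/2 against VEH, 3 genes were higher with DESeq2 and 2 with each limma fit on TPM (5 with edgeR), and the median was -0.22, -0.23 and -0.22 with limma on log2(TPM + 1), on log2(TPM + 0.1) and without the filter. In SLO against SLO 1/2 those 3 fits gave medians of -0.026, -0.027 and -0.026 (-0.060 with edgeR), the first and second gave 10 higher genes (6 with edgeR), and the third gave 10 lower genes (18 with edgeR). Why these fits differ was not tested.

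Leaving out 1 library gave 31 to 34 lower and 7 to 11 higher genes and medians of -0.23 to -0.19 in SLO, 31 to 32, 3 to 6 and -0.19 to -0.17 in SLO 1/2, and 15 to 18, 5 to 7 and -0.077 to -0.043 between the doses. The 7 higher genes in SLO came without VEH replicate 3, and the 3 higher genes in SLO 1/2 without VEH replicate 2, VEH replicate 3 or SLO 1/2 replicate 2. The extreme medians between the doses came without SLO 1/2 replicate 2 (-0.077) and without SLO replicate 2 (-0.043).

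Replicate numbers were not taken as pairs: deviations of libraries with the same number correlated at 0.003 to 0.087. With the replicate number as a block, 34 genes were lower and 11 higher in SLO, 32 and 4 in SLO 1/2, and 18 and 7 between the doses, with medians of -0.20, -0.19 and -0.06.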
